A study of Arabidopsis thaliana with 12 samples.

Results

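Whole seedlings of the Arabidopsis thaliana mutant pft1-1 were compared with the wild type Columbia (WT) at 23C. The comparison takes 6 of the 12 arrays of the study: 3 titled pft1 23C and 3 titled WT 23C, each genotype with replicates lettered A, B and C. The mutant is in the same Columbia background and is represented by 1 mutant line. All seedlings were 10 days old and had grown on agar plates of MS salts under cool-white fluorescent continuous light of 80 micromoles per second and square metre. The other 6 arrays hold the same genotypes grown at 16C; they enter the estimate of residual variance and are set beside the result where stated. Each array was hybridised with labelled RNA of whole seedlings, so that fewer cells of a type and less RNA per cell cannot be told apart in any difference below.

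PFT1 is the MED25 subunit of Mediator, the complex that passes signals from transcription factors bound to DNA to RNA polymerase II. MED25 binds transcription factors of the jasmonate and ethylene pathways, including MYC2 and members of the ERF family, and is a coactivator of defence genes that these hormones induce. The protein is also known as a promoter of flowering, acting on the photoperiod pathway and its output FT.

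Values are log2 levels per probe set, a group of short probes for 1 transcript, as the authors normalised them. A probe set was called when its Benjamini-Hochberg adjusted p over 22746 probe sets was under 0.05 in limma, with the means of the 4 groups fitted on 12 arrays. Genes were named for the 13513 probe sets (59.4%) with 1 gene in the annotation used. PFT1 had no named probe set there, nor did FT, CO or FLC, so that the mutated gene could not serve as a check of the labels here. The medians of the 6 arrays ran from 5.07 to 5.20, and the lower quartile of all their values was 2.54, under which a level is called near background here. The number of arrays limits the precision.

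The letter C arrays stood apart from those of letters A and B. Controls added as poly-A RNA before labelling had mean levels of 2.48 to 2.55 in letters A and B at 23C, of 4.83 in WT letter C and of 8.68 in pft1-1 letter C. The excess of 3′ over 5′ signal in control transcripts was 1.44 to 1.53 in letters A and B, 2.47 in WT letter C and 3.16 in pft1-1 letter C. Between genotypes the mean 3′ excess was 0.188 higher in pft1-1 and the mean spike-in level 1.26 higher (exact permutation test, two-sided, p = 1 and p = 0.9, with 0.1 the smallest p that 3 against 3 arrays allow). The 25S rRNA probe sets had levels of 6.32, 7.25 and 6.05 in WT and of 6.61, 9.91 and 10.05 in pft1-1, so that the pft1-1 arrays of letters B and C lay above the 3 WT arrays at 23C. The part of these measures in the differences below was not tested. The leaf markers RCA and LHCB4.1, the 2 of that list that were measured, had a log2 of their summed level of 15.3 to 15.5 in both groups. The root markers EXPA7 and EXPA18 had mean levels from 2.03 to 2.41, near background, in both groups. The seed storage and floral organ lists had 0 members with a named probe set. That is a limit of the annotation used and does not say whether such transcripts were present.

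At 23C, 5 probe sets were called (0.0220% of those tested), 1 higher in pft1-1 (0.00440%) and 4 lower (0.0176%). The lower ones are the plant defensins PDF1.2 and PDF1.2b, which encode small antifungal peptides and are the standard markers of the joint jasmonate and ethylene defence response, together with AT1G43590 and the unnamed probe set 258791_at. The higher one is the unnamed probe set 255725_at. The 3 pft1-1 and the 3 WT arrays did not overlap for any of these 5. Non-overlap alone was met by 1808 probe sets (7.95%), 955 higher (4.20%) and 853 lower (3.75%) in pft1-1.

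PDF1.2b had levels of 8.70, 10.30 and 10.96 on the WT arrays of letters A, B and C and of 3.41, 2.82 and 2.97 on the pft1-1 arrays. The WT arrays were all high, letter A the lowest, and the pft1-1 arrays lay just above the lower quartile of all values. The mean fell by 6.92 on the log2 scale (SE 0.71, n = 3 against 3), a 121-fold difference, with a limma adjusted p of 0.031. With the replicate letters as a block its adjusted p was 0.147, which is not a call, and leaving out any of 7 of the 12 arrays ended the call as well (adjusted p up to 0.119).

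PDF1.2 had levels of 8.0, 10.00 and 10.23 in WT and of 4.23, 3.08 and 4.01 in pft1-1. The groups lay far apart in each letter. It fell by 5.64 on the log2 scale (SE 0.63), or 49.8-fold, with a limma adjusted p of 0.0397, and with the replicate block the adjusted p was 0.170. Leaving out any of 9 arrays ended its call too (up to 0.142). The PDF1.2b probe set carries the suffix that marks possible cross-hybridisation, and the defensin genes are near-identical, so that both probe sets may read the same transcripts and are uncertain as separate genes.

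AT1G43590 is named in the gene table by its locus tag alone. Its levels were 5.50, 5.56 and 6.15 in WT and 3.20, 2.67 and 2.86 in pft1-1. It fell by 2.83 (SE 0.21; limma adjusted p = 0.0034; 0.0434 with the replicate block), or 7.09-fold, and was called under both models. With letters A and B alone it was -2.60 and not called (adjusted p = 0.292), nor was it on the 6 arrays of 23C alone (0.374). The pft1-1 arrays again lay just above the lower quartile of all values.

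The unnamed probe set 255725_at had levels of 6.84, 6.68 and 6.35 in WT and of 10.28, 10.64 and 10.32 in pft1-1. It rose by 3.79 (SE 0.22; limma adjusted p = 0.00073; 0.0192 with the replicate block), a 13.8-fold difference that was 3.44, 3.96 and 3.97 in letters A, B and C. It had the smallest p of the comparison and was called with letters A and B alone (adjusted p = 0.0287), but not on the 6 arrays of 23C alone (0.0722). No gene is named for 255725_at and no probe set for PFT1, so whether it reads the mutated gene cannot be told here. The unnamed 258791_at had levels of 8.77, 9.52 and 9.54 in WT and of 6.71, 6.39 and 5.53 in pft1-1, and fell by 3.07 (SE 0.33; limma adjusted p = 0.0396; 0.163 with the replicate block). Its call was also lost without any of 9 arrays (up to 0.138).

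**Figure D1:**
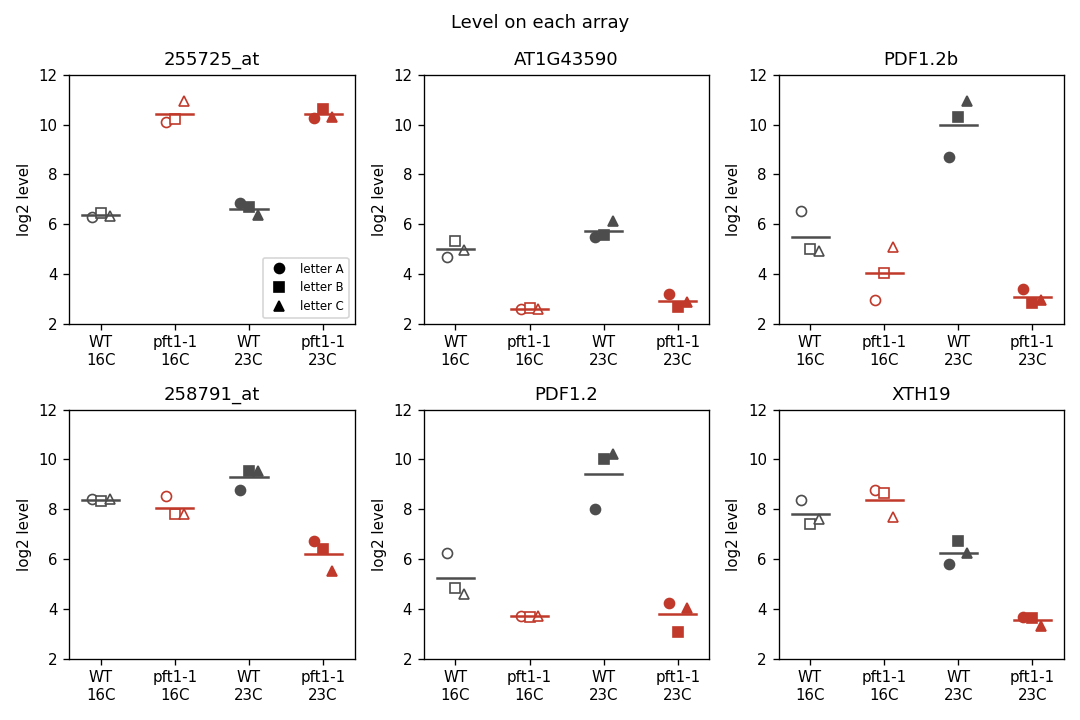
Log2 level (y axis) of the 5 called probe sets and of XTH19 on each of the 12 arrays, by group (x axis); symbols mark the replicate letter, filled symbols 23C and open symbols 16C, and lines the group means. At 23C the WT and pft1-1 arrays do not overlap in any of the 6 panels; at 16C the groups stay apart for 255725_at, AT1G43590 and PDF1.2 and overlap for PDF1.2b, 258791_at and XTH19.

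The 6 arrays of the seedlings grown at 16C give the same comparison at the lower temperature. For 255725_at pft1-1 minus WT was 4.07 at 16C and for AT1G43590 it was -2.38, both called there too (limma adjusted p = 0.0004 and 0.0098), among 8 probe sets called at 16C (0.0352%). PDF1.2b was 1.48 lower and PDF1.2 1.52 lower at 16C, neither called (both adjusted p = 0.9998), and the 3 pft1-1 arrays lay below the 3 WT arrays for PDF1.2 but not for PDF1.2b. In WT the defensins stood at 4.93 to 6.54 and 4.58 to 6.25 at 16C, below their WT levels at 23C. The test of the difference between temperatures gave -5.45 (SE 1.00, limma adjusted p = 0.368) for PDF1.2b, -4.11 (SE 0.89, adjusted p = 0.516) for PDF1.2 and -2.74 (SE 0.47, adjusted p = 0.347) for 258791_at. The limma interaction test called 0 probe sets (0.00%), with 1259 (5.54%) at an unadjusted p under 0.05, so none of these differences was shown to depend on temperature.

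**Figure D2:**
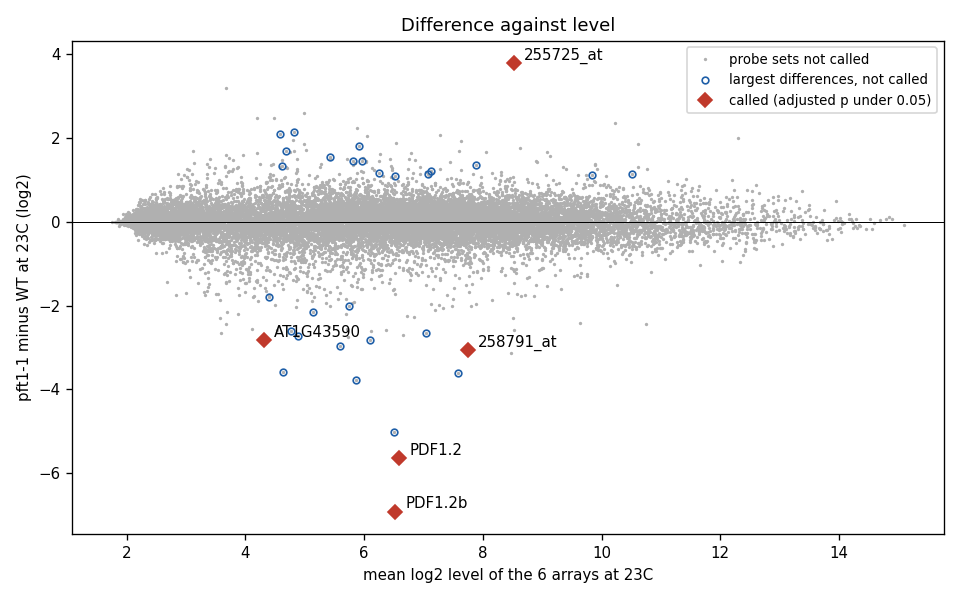
Difference pft1-1 minus WT at 23C (y axis, log2) against the mean log2 level of the 6 arrays (x axis) for all 22746 probe sets. Red diamonds are the 5 called probe sets, the defensins lowest at -6.92 and -5.64 and 255725_at highest at 3.79; open blue circles are the other largest differences described in the text.

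Beyond the calls, 1729 probe sets (7.60%) had an unadjusted p under 0.05, 890 higher (3.91%) and 839 lower (3.69%). A stricter description, a difference of at least 1 in each of letters A, B and C, was met by 39 probe sets lower in pft1-1 (0.171%) and 12 higher (0.0528%), of which 5 were called. Of the 39 lower ones 36 were also lower at 16C, 14 of them by at least 1, with a median of -1.84 at 23C and -0.70 at 16C. Of the 12 higher ones 7 were also higher at 16C, 2 by at least 1, with medians of 1.68 and 0.04. The differences at 23C chose these probe sets, so their medians at 23C are large in part by that choice. The share of all probe sets with the same sign or size at 16C was not counted. The values at both temperatures are a description.

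The largest differences among genes, chosen for non-overlap, an unadjusted p under 0.01 and a mean at or above the median of all values (5.141) in the higher of both groups, were 15 lower and 15 higher of the 84 and 89 that met these conditions. Since their size at 23C chose them, their values are a description. The 15 lower ones ran from PDF1.2b at -6.92 to AT3G22540 at -1.81, and 3 of them were the called genes above. XTH19, an enzyme that cuts and rejoins the xyloglucan chains of the cell wall, had levels of 5.79, 6.73 and 6.26 in WT and of 3.67, 3.63 and 3.30 in pft1-1. Its difference of -2.73 (SE 0.36) had a limma adjusted p of 0.101 and was not called. It passed when the test was limited to the upper 60% of probe sets by mean (adjusted p = 0.00953), with centring on array medians (0.0451) and with an intensity trend in the variance (0.0439), and had 0.170 with the replicate block. By p the calls were followed by AT2G03140, XTH19 and AT3G22540, with differences of -1.28, -2.73 and -1.81 (limma adjusted p = 0.077, 0.101 and 0.106).

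BCAT4 carries out the first step of methionine chain elongation, which feeds glucosinolate synthesis. Its levels were 7.95, 9.51 and 10.72 in WT and 7.15, 6.41 and 3.75 in pft1-1. The genotypes differed by -0.80, -3.10 and -6.97 in letters A, B and C, for a mean of -3.62 (SE 0.88, limma adjusted p = 0.386). The letter C difference is the widest, and the letter C arrays are those with high spike-ins; the part of this in the result was not tested. With letters A and B alone the mean was -1.95.

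AT5G64120, the class III peroxidase PRX71, which acts on cell wall phenolics with hydrogen peroxide, had levels of 9.34, 8.47 and 7.30 in WT and of 6.07, 5.76 and 5.32 in pft1-1. Its mean of -2.65 (SE 0.72, limma adjusted p = 0.428) was set beside -3.68 at 16C, where it was lower in all 3 letters as well. AT2G43590, which the gene table names by its locus tag alone, had levels of 6.14, 7.29 and 5.84 in WT and of 2.42, 3.11 and 2.99 in pft1-1, a difference of -3.59 (SE 0.52, adjusted p = 0.136). AT3G44970 stood at 7.82, 7.73 and 7.73 in WT and at 3.51, 3.93 and 4.50 in pft1-1, a difference of -3.77 (SE 0.62, adjusted p = 0.175).

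The other 7 of the 15, all named by locus tag, lay between -5.02 (AT3G16670) and -1.81 (AT3G22540). AT3G16670 had levels of 8.63, 10.54 and 7.89 in WT and of 2.73, 6.46 and 2.80 in pft1-1, the letter B pair being higher in both genotypes (SE 1.53, limma adjusted p = 0.481). Of the 15, 12 were lower at 16C as well, 8 by at least 1, with a median of -2.83 at 23C and -1.34 at 16C.

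The 15 higher genes were smaller in size, from 2.13 (AT3G25290) to 1.09 (AT4G25835), and none was called (limma adjusted p from 0.1747 to 0.4809). AT3G25290 had levels of 3.25, 4.12 and 3.87 in WT and of 6.51, 5.52 and 5.61 in pft1-1. AT2G41190 had levels of 4.98, 5.29 and 4.98 in WT and of 6.32, 6.34 and 6.96 in pft1-1 (1.45, SE 0.24, adjusted p = 0.175). STR18, the 1 of these genes with a symbol of its own, is a sulfurtransferase and stood at 6.21, 6.53 and 6.86 in WT and at 7.53, 7.20 and 8.47 in pft1-1 (1.2, SE 0.34, adjusted p = 0.470). At 16C 5 of the 15 were higher in pft1-1, 0 by at least 1, with a median of -0.10 beside 1.35 at 23C.

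**Figure D3:**
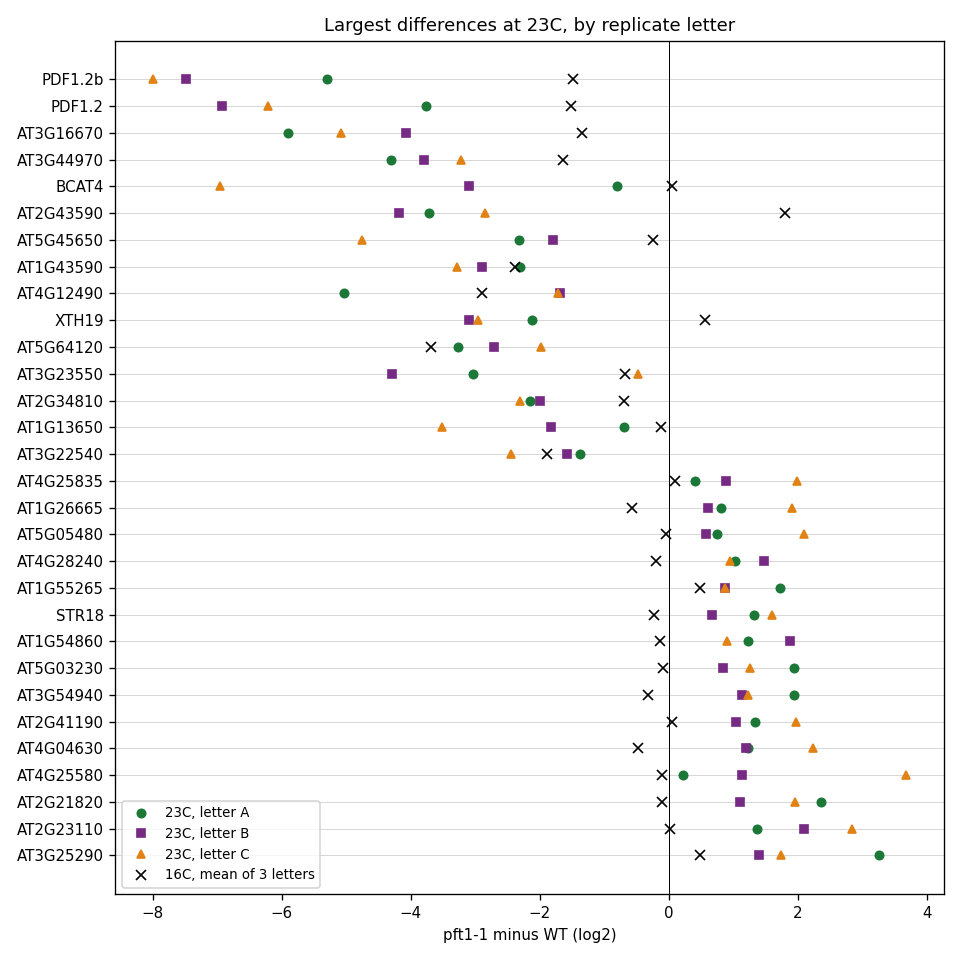
Difference pft1-1 minus WT (x axis, log2) in letters A, B and C at 23C and as the mean at 16C (crosses), for the 15 lowest and the 15 highest genes at 23C (y axis). Every gene has its 3 letters on 1 side of 0, which follows from choosing genes whose groups do not overlap at 23C. The crosses of the 15 higher genes lie between -0.57 and 0.49, with 5 of them above 0. Among the 15 lower genes, the crosses of AT2G43590, XTH19 and BCAT4 lie above 0, at 1.80, 0.57 and 0.05.

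The jasmonate and ethylene defence list holds 5 measured genes, of which the 2 defensins fell and 3 did not pass, beside 0.0176% of all probe sets called lower. Both calls are lost with the replicate block (adjusted p = 0.147 and 0.170), and both probe sets may read the same transcripts. The list was chosen with earlier results of these data known, so its share beside that of all probe sets is a description. OSM34, an osmotin-like antifungal protein, stood at 7.47, 6.19 and 6.20 in WT and at 5.42, 5.42 and 6.32 in pft1-1 (-0.90, SE 0.43, limma adjusted p = 0.689), with overlapping groups. The thionin THI2.1 was near background, at mean levels of 2.37 and 2.40, and the defensin LCR67, also called PDF1.1, had mean levels of 2.54 in WT and 2.58 in pft1-1. From the jasmonate synthesis list 1 gene was measured, OPCL1, which activates a precursor of jasmonate, and it was 0.85 lower (SE 0.21, adjusted p = 0.404). MYC3 and MYC4, transcription factors that act with MYC2 in jasmonate responses, differed by 0.16 and 0.08, less than their spread between replicates.

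**Figure D4:**
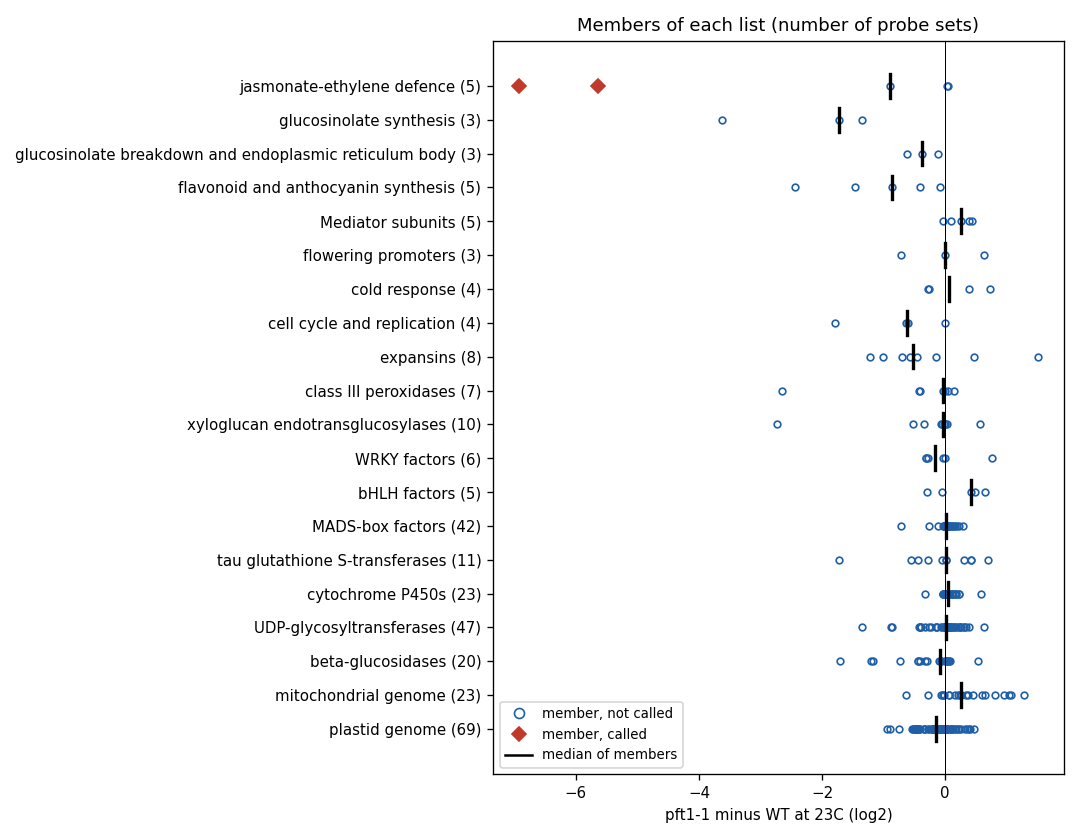
Difference pft1-1 minus WT at 23C (x axis, log2) of every measured and named member of the lists and families with 3 or more probe sets (y axis, number in brackets). Black bars are medians, red diamonds called members. The called members are PDF1.2b and PDF1.2; the glucosinolate synthesis and flavonoid medians lie at -1.72 and -0.87.

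The 20 lists with measured and named members held 73 probe sets. The 2 defensins were the members called, beside 0.0220% of all probe sets, and neither was called with the replicate block. At an unadjusted p under 0.05 there were 10 lower (13.7%, beside 3.69% of all probe sets) and 2 higher (2.74%, beside 3.91%), with lists chosen when earlier results were known.

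Glucosinolates are the sulfur-containing defence compounds of this plant family. The 3 measured and named synthesis genes, BCAT4, UGT74B1 and GSTU20, had negative differences with a median of -1.72, beside 0.0082 for all probe sets, and none was called. UGT74B1, which adds the glucose, stood at 8.68, 9.94 and 9.63 in WT and at 8.50, 8.46 and 7.24 in pft1-1 (-1.35, SE 0.39, limma adjusted p = 0.476). GSTU20 stood at 8.46, 9.80 and 10.04 in WT and at 8.19, 8.82 and 6.12 in pft1-1, with overlapping groups (-1.72, SE 0.68, adjusted p = 0.612). The medians of the list were -0.27, -1.48 and -3.92 in letters A, B and C, so that letter C gave the largest value. PYK10, the abundant beta-glucosidase of endoplasmic reticulum bodies, stood at 12.29, 12.79 and 12.33 in WT and at 11.86, 12.28 and 11.40 in pft1-1 (-0.62, SE 0.26, adjusted p = 0.635).

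The 5 measured and named genes of flavonoid and anthocyanin synthesis were all negative, as were 9757 of all 22746 probe sets. Their median was -0.87 and none was called. DFR, which makes the leucoanthocyanidins, was at 2.49 in the WT array of letter A, 5.50 in letter B and 6.68 in letter C, and at 2.43, 2.45 and 2.49 in pft1-1 (-2.43, SE 1.09, limma adjusted p = 0.662). In letter A both arrays were near background and differed by -0.06. The list medians were 0.06, -0.64 and -2.46 by letter.

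Mediator subunits other than MED25 were measured and named in 5 probe sets. Of these 4 were positive, beside 57.1% of all probe sets, with a median of 0.27 and none called. Another 7 members of the list had a probe set but no such name in the gene table and were left out. The 5 therefore do not cover all subunits on the array. MED9, of the middle module, stood at 3.43, 3.53 and 3.61 in WT and at 3.91, 4.1 and 3.72 in pft1-1 (0.39, SE 0.11, limma adjusted p = 0.476). MED31, MED19A and MED6 differed by 0.44, 0.27 and 0.09.

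Among flowering genes, GI, the clock-associated regulator upstream of CO, stood at 7.19, 7.27 and 6.65 in WT and at 7.55, 7.46 and 7.98 in pft1-1. The groups did not overlap, and the difference of 0.62 (SE 0.24) was not called (limma adjusted p = 0.605). The floral repressors SMZ and SNZ, AP2-type factors, were 0.96 and 0.95 lower with overlapping groups (adjusted p = 0.842 and 0.707). FD, the partner of FT at the shoot apex, was at background.

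Other lists gave no call. COR47, a dehydrin of the cold response, was 0.73 higher without overlap (SE 0.37, limma adjusted p = 0.737), while COR15A and COR15B differed by 0.39 and -0.27. The Aurora kinases AUR1 and AUR2, which act in cell division, were 1.79 and 0.63 lower, with AUR1 at 3.35, 5.36 and 6.35 in WT and at 2.99, 4.37 and 2.33 in pft1-1 (limma adjusted p = 0.617), and AUR3 had a mean level of 2.82 in both groups. Expansins, which loosen cell walls, had a median of -0.52, with letter medians of 0.30, -0.47 and -1.40. The 14 families, grouped by symbol or by organelle, were set up once values were known. Only part of them gave values. These were the WRKY, bHLH, NAC and MADS-box factors, tau glutathione S-transferases, cytochrome P450s, UDP-glycosyltransferases, beta-glucosidases and the plastid and mitochondrial genomes. Of their members 0 were called, beside 0.0220% of all probe sets. ERF factors were not among the families with values, so their levels are not described here. The plastid genome's 69 probe sets had a median of -0.14 with letter medians of 0.04, -0.41 and -0.10. The mitochondrial genome's 23 had a median of 0.26, with letter medians of 0.005, -0.02 and 0.49, and letter C was the letter away from 0.

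The differences between genotypes varied with the letter. Their SD over all probe sets was 0.42 in letter A, 0.35 in letter B and 0.77 in letter C. Probe sets lower in pft1-1 by at least 1 numbered 426, 239 and 1647, and those higher by at least 1 numbered 345, 164 and 1463. Across probe sets, which are not independent replicates, the differences of letters A and B had a Pearson r of 0.209, those of A and C 0.059 and those of B and C 0.387. With the replicate letters as a block 4 probe sets were called (0.0176%), of which 255725_at and AT1G43590 were called without the block too. The others were AT3G16800 and PGRL1B, chosen here because the block called them, which rose by 1.00 (SE 0.09) and 0.73 (SE 0.06) in that model (limma adjusted p = 0.0434 for both).

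**Figure D5:**
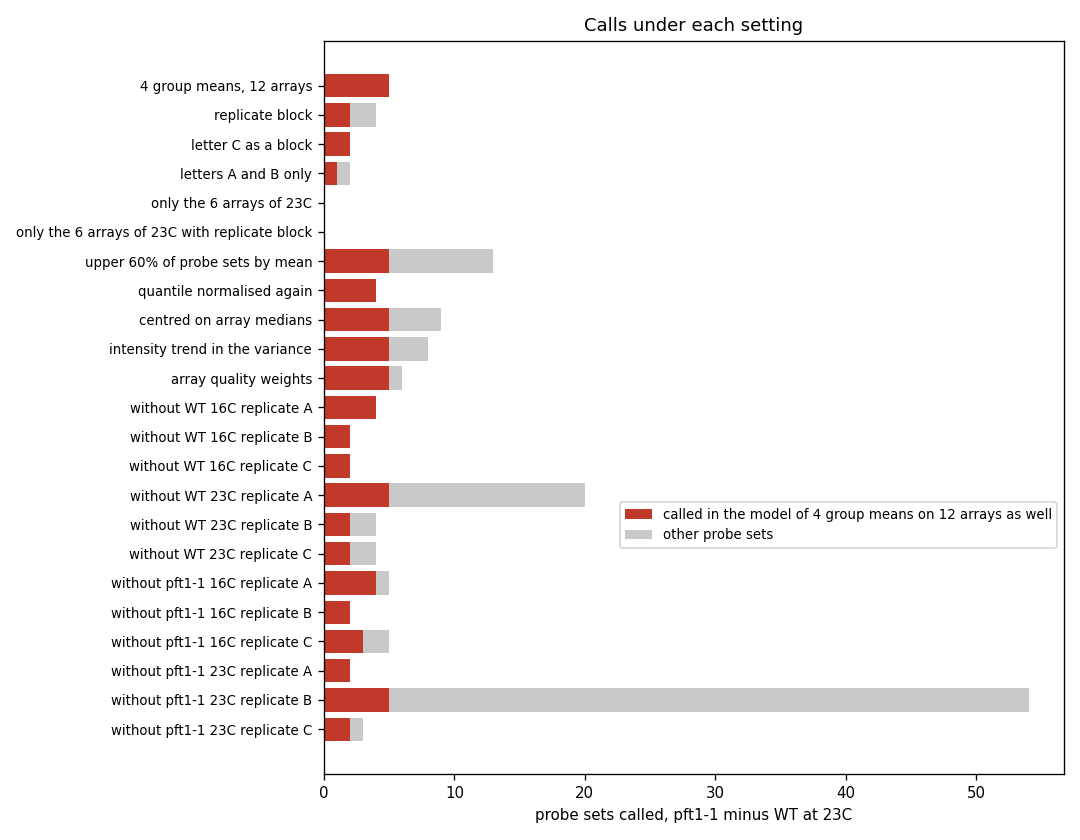
Number of probe sets called at 23C (x axis) under each of 23 settings of limma (y axis); red marks probe sets also called with 4 group means on 12 arrays, grey the others. Counts run from 0 on the 6 arrays of 23C alone to 54 without the pft1-1 array of letter B.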

How the data were processed

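RNA of whole seedlings was measured on 12 one-colour arrays, 3 per group. The deposited values are log2 levels per probe set, normalised and summarised by the authors with RMA and affy, per the submitters' processing notes; no version or genome build was given in the sources used here. Replicate letters come from the sample titles. The 64 control probe sets were set aside, and all 22746 others were tested in limma 3.58.1 under R 4.3.3, low values included (lmFit and eBayes; means of 4 groups on 12 arrays; 8 residual and 1.05 prior degrees of freedom; Benjamini-Hochberg adjusted p under 0.05). SE is limma's moderated standard error. Figures and tables used Python 3.11.15, pandas 2.3.3, numpy 2.4.6, scipy 1.17.1 and matplotlib 3.10.9.

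Gene names came from the platform annotation, matched by Entrez identifier to the TAIR10.1 gene table, which held 13436 (99.4%) of 13513 probe sets with 1 gene; 503 had several and 8730 none. Of 405 members of 22 gene lists, 73 were measured and named. The 61 with a probe set but no such name in the gene table were left out.

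The members and lists were chosen with earlier results of these data known, and the 14 families after values had been seen; the pattern for cytochrome P450s was then corrected because it also took in cyclophilins. The naming rule took the called probe sets, the 15 largest differences each way as described in the text, up to 4 members of each list by p, and GI.

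For a pairing check by letter, residuals were correlated between same-letter WT and pft1-1 arrays at 23C, with values of 0.129, 0.473 and 0.158 for A, B and C. All passed 0.1, so blocked values stand beside results whose call they change. No label says more of what a letter shares.

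In simulated data of 22746 probe sets, 50 were changed at each log2 size. All of them were drawn from probe sets with a mean above the median of all values, so lower probe sets are not covered. Calls recovered 34% of changes of 1, 74% of 2, 98% of 3 and 100% of 5, with 14 false calls. These shares describe the simulated data and are not the power of the comparison at 23C. The real arrays had limma quality weights from 0.161 (pft1-1 23C C) to 4.614 (pft1-1 16C B). The SD of the genotype differences was 0.349 in letter B and 0.765 in letter C. Recovery under such differences between arrays and letters was not tested. Alternatives covered the block, the arrays fitted, a level filter, scaling, variance models, array weights and each array left out.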

Additional observations from a re-analysis of the deposited data

Results flagged for a closer look

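Of the 84 named probe sets, 9 differed in one direction in every letter at 23C and in the opposite direction in every letter at 16C. Many of the 84 were chosen by size, non-overlap or p at 23C, so agreement of the letters at 23C was partly built in. The share over all probe sets was not counted, and the 9 are a description. The change at 23C minus that at 16C was -5.38 for AT2G43590 (limma adjusted p = 0.237) and -3.29 for XTH19 (adjusted p = 0.285). It was 1.48 for AT1G54860 (adjusted p = 0.730) and 1.68 for AT1G26665 (adjusted p = 0.614). For the glucosinolate genes GSTU20 and UGT74B1 it was -2.82 and -1.64 (adjusted p = 0.787 and 0.782). For the jasmonate genes OPCL1 and MYC3 it was -1.35 and 0.47 (adjusted p = 0.551 and 0.938). For IAA29, near background on average in both genotypes at 23C, it was 0.0745 (adjusted p = 0.947). None passed the interaction test. For AT2G43590 pft1-1 minus WT was -3.59 at 23C and 1.80 at 16C, and for XTH19 it was -2.73 and 0.57.

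Poly-A spike-in probe sets, which the comparison does not use, reached a mean log2 level of 8.68 on the pft1-1 array of letter C, above the 4.83 of the highest WT array at 23C. Its part in the results was not tested.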

How the results depend on the processing

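With 5 probe sets called in the model of 4 group means, the replicate block called 4 and renewed quantile normalisation 4. Letter C as a block called 2, letters A and B only 2 (255725_at and AT5G27230), the upper 60% of probe sets by mean 13, centring on array medians 9, an intensity trend in the variance 8 and array quality weights 6. On the 6 arrays of 23C alone limma called 0 (1163 at an unadjusted p under 0.05), and 0 with the replicate block (1630). Without 1 array the count ran from 2 to 54. It was 54 without pft1-1 23C B, 20 without WT 23C A and 3 without pft1-1 23C C. It was 2 without pft1-1 23C A, WT 16C B, WT 16C C or pft1-1 16C B. The 25S rRNA levels of pft1-1 23C B, WT 23C A and pft1-1 23C C were 9.91, 6.32 and 10.05. The cause of the spread in counts was not tested. Calls of 255725_at and AT1G43590 held without any 1 array (highest adjusted p 0.00968 and 0.0318). That of PDF1.2 was lost without any of 9 arrays, of 258791_at without 9 and of PDF1.2b without 7 (up to 0.142, 0.138 and 0.119). All 3 kept their calls without WT 23C A or pft1-1 23C B. PDF1.2 and PDF1.2b also kept theirs without WT 16C A, PDF1.2b and 258791_at without pft1-1 16C A, and PDF1.2b without pft1-1 16C C; each other array, left out, ended the call. All 32 genes followed kept their direction in 702 values, 46 of which lost and 11 gained a call. Their WT and pft1-1 arrays do not overlap at 23C, so leaving out arrays could not reverse a direction. The block, the variance trend and the level filter leave the difference itself as it was. The kept direction is therefore built in and says nothing of stability. Interaction tests passed in 0 of 100 values.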
